A study of Mus musculus with 2 samples.

Results

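A set of 41 leukocyte genes was followed in the stomach of the mouse embryo at 14.5 days of gestation (E14.5). The genes were taken by symbol from a list that covers macrophages, monocytes, granulocytes, mast cells, lymphocytes and chemokines, by a rule that uses no measured value but was written with earlier results of these data known, and all 41 were matched among 43346 genes in the deposited tables. The single group was strain B6NCrl, with no treatment or allele given in the labels, and it held 2 total RNA-seq libraries. Each library came from the stomach of a different embryo, and the labels give the collection days as day 17 of the month for replicate 2 and day 15 for replicate 1. They call each sample a single stomach of 1 pup but give its sex as pooled, which does not match. The data thus describe levels in whole stomach and how far 2 embryos and their library preparations differed. With 1 library on each side of a ratio, no test was possible.

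Leukocytes of the fetus arise from the yolk sac and the liver. Macrophages that seed organs before birth depend on the receptor Csf1r and its ligands Csf1 and Il34, and clear dying cells while tissues take shape. Neutrophils mature in steps, making the enzymes of their first granules as progenitors and other proteins later, and lymphocytes become abundant in the gut mainly around and after birth.

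The libraries held 25599910 expected counts in replicate 2, with 23882647 of them on genes, and 25072242 in replicate 1, with 23668322 on genes. Expected counts are read numbers per gene, with shared reads split among genes. Levels are given in TPM (transcripts per fixed total, divided by length) with the mean ± SD over the 2 libraries (n = 2). Spike-in RNAs took 14.2% of TPM in replicate 2 and 12.1% in replicate 1. The libraries differed at genes of a neighbouring organ. All 6 genes of the exocrine pancreas were lower in replicate 2, with summed levels of 3.80 TPM there and 470 TPM in replicate 1. Of these, Cpa1, Cela1, Ctrb1, Pnliprp1 and Cel lay over 2-fold apart with mean counts above 100, and Prss1 was at 0 in replicate 2. A list of 5 spleen genes, led by Slc40a1, Hmox1 and Nkx2-5, summed to 65.1 TPM in replicate 2 and 77.4 TPM in replicate 1, with the spleen regulator Tlx1 at 3 counts in replicate 2 and 16 counts in replicate 1. The part of either organ in the values of leukocyte genes was not tested. Of genes known from stomach, Cym, the gene of the milk-clotting protease chymosin, had 1927 TPM in replicate 2 and 2152 TPM in replicate 1, and Barx1, a transcription factor of stomach mesenchyme, had 94.5 TPM in replicate 2 and 108 TPM in replicate 1. Tff1, a mucosal peptide, had 102 TPM in replicate 2 and 99.8 TPM in replicate 1, and the acid pump subunit Atp4b had 12.5 TPM in replicate 2 and 12.6 TPM in replicate 1. These 4 were chosen with their values known. Genes of mesenchyme (led by Col3a1, Col1a1 and Dcn), epithelium (Krt8, Krt18 and Krt19), endothelium (Egfl7, Plvap and Pecam1) and red cells (Hba-a2, Hbb-bs and Hba-a1), which most organs express, were also at TPM 1 or above in each library.

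Fetal stomach expressed most of the set. Of the 41 leukocyte genes, 33 (80.5%) were detected, meaning TPM 1 or more in both libraries, against 34.9% of all genes. As the list was drawn up with such results known, the higher share describes the list only. The 8 others were Il34, Cd163, Timd4, Lyz1, Elane, Il7r, Cd3e and Cd79a, among them all 3 lymphocyte genes. The set summed to 701 TPM in replicate 2 and 780 TPM in replicate 1. By role, the chemokine axis was highest, with 148 TPM in replicate 2 and 155 TPM in replicate 1, followed by pan-leukocyte and Fc receptor genes with 139 TPM in replicate 2 and 145 TPM in replicate 1. Macrophage surface and secreted genes summed to 103 TPM in replicate 2 and 116 TPM in replicate 1, and complement C1q to 103 TPM in replicate 2 and 109 TPM in replicate 1. The 4 granulocyte genes held 91.9 TPM in replicate 2 and 117 TPM in replicate 1. The mast cell genes (4.76 TPM in replicate 2 and 6.01 TPM in replicate 1), the single antigen presentation gene (3.22 TPM in replicate 2 and 2.24 TPM in replicate 1) and the lymphocyte genes (0.47 TPM in replicate 2 and 0.7 TPM in replicate 1) were lowest. Because whole organs were measured, fewer cells of a type and less RNA per cell cannot be told apart. The 34.9% of all genes detected is also the share to set beside the detected counts of further lists below. Those lists too were chosen with earlier results known.

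**Figure D1:**
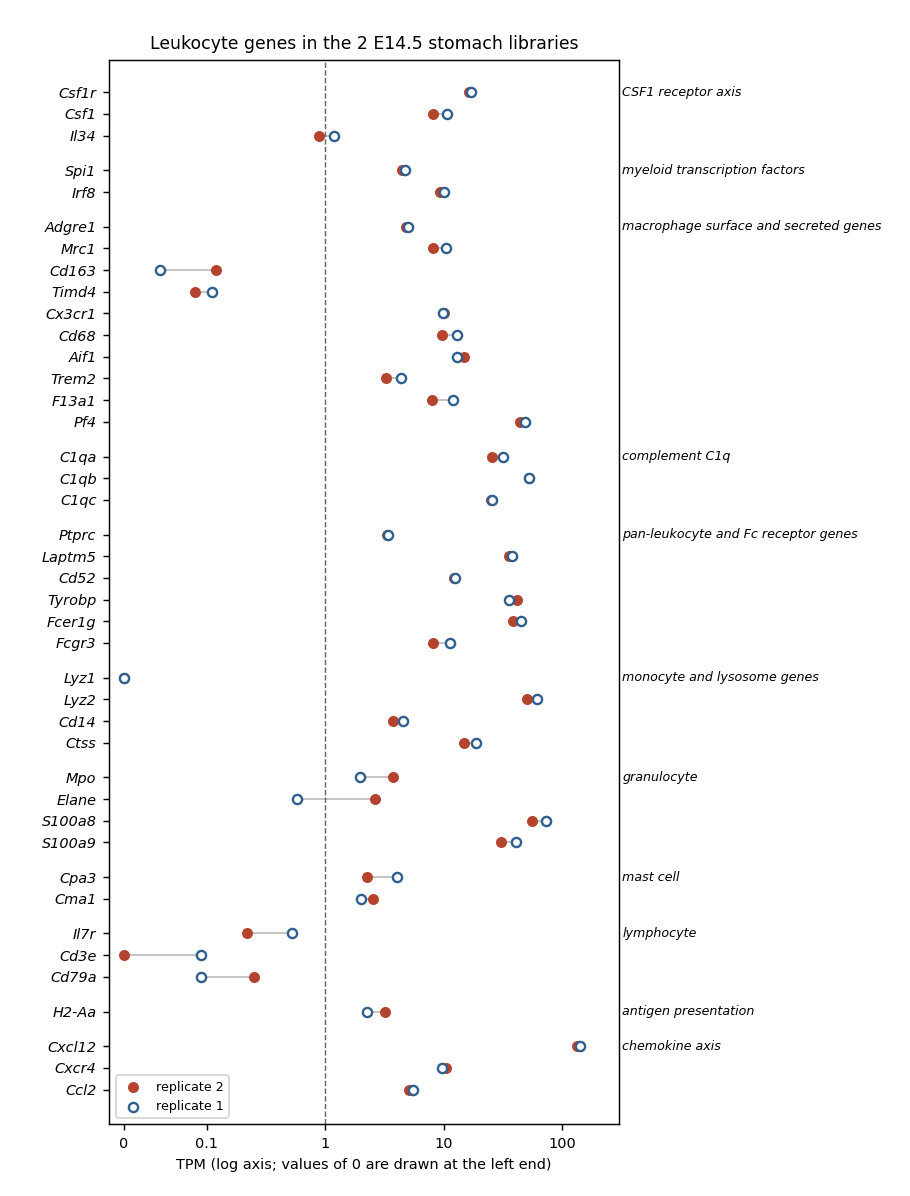
Levels of the 41 leukocyte genes in TPM on a log axis, by role, with filled points for replicate 2 and open points for replicate 1. The dashed line marks TPM 1. Cxcl12 lies farthest right at 132 TPM in replicate 2 and 140 TPM in replicate 1, and the 3 lymphocyte genes lie left of the line in both libraries.

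The macrophage growth factor Csf1 and its receptor were detected, and the other ligand, Il34, stood near TPM 1. Csf1r (chromosome 18, 61100598 to 61132149, plus strand) had 1284 counts in replicate 2 and 1290 counts in replicate 1, or 16.4 TPM in replicate 2 and 17.1 TPM in replicate 1. Its level of 16.7 ± 0.552 TPM was above 51.8% of detected genes. Csf1, the ligand made by stroma, had 8.08 TPM in replicate 2 and 10.7 TPM in replicate 1. Il34, made by epithelia and neurons, had 0.89 TPM in replicate 2 and 1.19 TPM in replicate 1 (19 counts in replicate 2 and 23 counts in replicate 1). Csf1 was 9.08 times as high as Il34 in replicate 2 and 8.97 times in replicate 1, but 5.72 times in replicate 2 and 6.66 times in replicate 1 by the deposited posterior mean TPM, by which Il34 passed TPM 1 in both libraries. Both transcription factors that guide myeloid fate were detected. Spi1, which encodes PU.1, was at 4.4 TPM in replicate 2 and 4.67 TPM in replicate 1. Irf8, needed for monocytes and tissue macrophages, was at 9.24 TPM in replicate 2 and 10.04 TPM in replicate 1. Irf8 lies wholly within the predicted gene Gm20388 on the same strand, which took 783 counts in replicate 2 and 529 counts in replicate 1, and reads may be divided between them wrongly.

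Macrophage surface genes covered a range of levels, and Cd163 and Timd4 were near 0. The most abundant of the 10 was Pf4, a chemokine of platelets that fetal macrophages also express, at 44.2 TPM in replicate 2 and 48.7 TPM in replicate 1. Ppbp, a platelet chemokine encoded beside Pf4, was far lower, so that Pf4 was 24.3 times as high in replicate 2 and 20.6 times in replicate 1. Aif1, the actin-binding protein known as Iba1, had 14.7 TPM in replicate 2 and 12.8 TPM in replicate 1, and Cd68, a lysosomal membrane protein, had 9.59 TPM in replicate 2 and 12.8 TPM in replicate 1. Cx3cr1, the fractalkine receptor that marks early macrophages and their precursors, was at 10.1 TPM in replicate 2 and 9.76 TPM in replicate 1. Its locus overlaps those of other genes, among them Wdr48 and Gorasp1 with 1995 and 981 counts in replicate 2, so its count may hold reads of theirs.

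Close to these stood the mannose receptor Mrc1, at 8.11 TPM in replicate 2 and 10.5 TPM in replicate 1, and the transglutaminase subunit F13a1 at 7.91 TPM in replicate 2 and 12.0 TPM in replicate 1. Adgre1, which encodes the classical macrophage marker F4/80, had 4.78 TPM in replicate 2 and 5.01 TPM in replicate 1. The lipid-sensing receptor Trem2 had 3.24 TPM in replicate 2 and 4.36 TPM in replicate 1. By contrast, the haemoglobin scavenger receptor Cd163 had 9 counts in replicate 2 and 3 counts in replicate 1, and Timd4, a receptor for dying cells on resident macrophages, had 3 counts in replicate 2 and 4 counts in replicate 1. In the plot of levels both lie far left of the other 8 genes of their role. Among 30 further macrophage genes, 22 were detected, with Apoe (218 ± 8.79 TPM), Ctsb (142 ± 7.99 TPM) and Grn (87.4 ± 1.75 TPM) highest, all of which other stomach cells also express. Marco and Vsig4, receptors of resident macrophages in spleen or liver, had no count in either library, where 0 allows a true count of at most 3 per library. In the same list Siglec1 stayed below TPM 1, with 17 counts in replicate 2 and 31 counts in replicate 1. Mertk, Lyve1 and Folr2 were detected, with 300, 203 and 39 counts in replicate 2 and 328, 337 and 28 counts in replicate 1. Siglec1, Mertk, Lyve1 and Folr2 were named after their values were seen.

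The complement C1q genes, whose products assemble from 3 chains, lie in a row on chromosome 4 on the minus strand. C1qb had 928 counts in replicate 2 and 869 in replicate 1, or 52.4 TPM in replicate 2 and 52.1 TPM in replicate 1. C1qa had 25.4 TPM in replicate 2 and 31.6 TPM in replicate 1. C1qc was close to it, at 25.2 TPM in replicate 2 and 25.6 TPM in replicate 1. The B chain transcript was thus 2.06 times as abundant as the A chain in replicate 2 and 1.65 times in replicate 1, and it was 2.08 times as abundant as the C chain in replicate 2 and 2.04 times in replicate 1.

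Genes shared by all leukocytes or by cells with Fc receptors were all detected, 6 of 6. Ptprc, the tyrosine phosphatase CD45 that defines leukocytes, was at 3.31 TPM in replicate 2 and 3.36 TPM in replicate 1, low beside the other 5. Laptm5, a lysosomal protein of blood cells, had 35.3 TPM in replicate 2 and 37.6 TPM in replicate 1, and the small surface glycoprotein Cd52 had 12.1 TPM in replicate 2 and 12.4 TPM in replicate 1. The signalling adaptors with ITAM motifs were both high. Tyrobp, which encodes DAP12, had 41.7 TPM in replicate 2 and 35.9 TPM in replicate 1, and Fcer1g, the shared gamma chain of Fc receptors, had 38.7 TPM in replicate 2 and 44.5 TPM in replicate 1. Which adaptor was higher thus differed between the libraries. Fcgr3, an activating receptor for IgG that pairs with Fcer1g, had 8.18 TPM in replicate 2 and 11.3 TPM in replicate 1. Downstream of these adaptors, 9 of 12 further genes were detected, led by the kinase Lyn (14.0 ± 1.73 TPM), the phosphatase Ptpn6 (10.9 ± 0.813 TPM) and the lipid phosphatase Inpp5d (4.02 ± 0.919 TPM). All 6 genes of the phagocyte oxidase were detected, among them Cyba (152 ± 9.89 TPM) and the far lower Rac2 (4.47 ± 0.771 TPM).

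Lysozyme counts fell on 1 of the 2 neighbouring lysozyme genes. Lyz2, the lysozyme of myeloid cells (chromosome 10, 117277331 to 117282321, minus strand), had 1052 counts in replicate 2 and 1212 counts in replicate 1, or 50.4 TPM in replicate 2 and 61.6 TPM in replicate 1. Lyz1, which Paneth cells of the adult intestine express (chromosome 10, 117287797 to 117292868, minus strand), had 0 counts in both. Against a floor of 3 counts per library, Lyz2 was at least 351-fold higher than Lyz1 in replicate 2 and at least 404-fold higher in replicate 1. The copies are alike, so the letters show how far reads can tell them apart. Over coding sequences of 447 bases they differ at 22 positions (95.1% identity), and 16.1% of the windows of 50 bases in the Lyz1 transcript also occur in that of Lyz2. Shown are coding bases 7 to 156 counted from the start codon, as given by GENCODE on mm10, where 15 of the differences lie, with differing bases in capitals.
Lyz1: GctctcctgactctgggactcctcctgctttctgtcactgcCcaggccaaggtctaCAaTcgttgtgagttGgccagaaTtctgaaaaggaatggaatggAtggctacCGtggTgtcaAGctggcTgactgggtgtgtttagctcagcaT
Lyz2: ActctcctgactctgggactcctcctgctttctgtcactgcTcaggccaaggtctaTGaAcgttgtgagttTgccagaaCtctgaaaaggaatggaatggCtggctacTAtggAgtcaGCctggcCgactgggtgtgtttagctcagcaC
A read over any of these capitals belongs to 1 copy. The other genes of this role were Ctss, a lysosomal protease that trims antigens, at 15.0 TPM in replicate 2 and 18.7 TPM in replicate 1, and the lipopolysaccharide co-receptor Cd14 at 3.76 TPM in replicate 2 and 4.51 TPM in replicate 1. Of 13 further monocyte genes, 8 were detected, led by Plac8 (115 ± 3.25 TPM), Klf4 (16.6 ± 1.6 TPM) and Csf2ra (16.5 ± 0.163 TPM). Klf4 is also made by epithelium.

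The 4 granulocyte genes did not differ the same way between the libraries, with the 2 calprotectin genes lower and the 2 enzymes of early granules higher in replicate 2 under every scaling tried. S100a8 (chromosome 3, 90668978 to 90670035, plus strand), a subunit of the abundant neutrophil protein calprotectin, had 290 counts in replicate 2 and 363 counts in replicate 1, or 55.3 TPM in replicate 2 and 73.5 TPM in replicate 1. Its partner subunit S100a9 had 30.2 TPM in replicate 2 and 40.8 TPM in replicate 1, so the ratio of S100a8 to S100a9 was 1.83 in replicate 2 and 1.80 in replicate 1. Myeloperoxidase Mpo (chromosome 11, 87793581 to 87804413, plus strand), an enzyme of the first neutrophil granules, went the other way. It had 150 counts in replicate 2 and 70.7 counts in replicate 1, or 3.74 TPM in replicate 2 and 1.98 TPM in replicate 1, a ratio of 2.08 (95% counting interval 1.56 to 2.80). Neutrophil elastase Elane (chromosome 10, 79886247 to 79888215, plus strand), stored in the same granules, had 39 counts in replicate 2 and 8 counts in replicate 1, or 2.65 TPM in replicate 2 and 0.58 TPM in replicate 1. Its ratio was 4.58 (2.21 to 11.9) on few counts.

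These 4 genes prompted a sorting of 14 genes by the stage at which neutrophils make them, done after the values were seen, so it is no support for a difference by stage. Beside Mpo and Elane, the early granule genes were Prtn3, Ctsg and Ms4a3, and all 3 were higher in replicate 2, though Ctsg was lower there with spike-in scaling. Only Prtn3, the gene of proteinase 3, had more than a few counts, with 61.2 counts in replicate 2 and 28.2 counts in replicate 1, and the others had 6 or fewer in each library. Beside S100a8 and S100a9, 4 of 7 genes of later neutrophils were lower in replicate 2, and 6 of 7 with spike-in scaling. The granule protein Ngp had 142 counts in replicate 2 and 188 counts in replicate 1, the antimicrobial peptide gene Camp had 68 in replicate 2 and 63 in replicate 1, and the receptor gene Csf3r had 19 in replicate 2 and 37 in replicate 1.

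The sorting left out 6 further granulocyte genes, which were named here after their values were seen. Among them the transcription factor genes Gfi1, which acts early in granulocytes, and Cebpe, which acts later, had 2 counts each in replicate 2, against 15 counts for Gfi1 and 10 counts for Cebpe in replicate 1. Gfi1 thus went against the direction of the early granule genes. The eosinophil genes Prg2 and Epx had 2 and 11 counts in replicate 2, against 4 and 6 counts in replicate 1. Ly6g, a surface marker of mature neutrophils, and the eosinophil receptor gene Il5ra had 0 counts in both libraries.

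**Figure D2:**
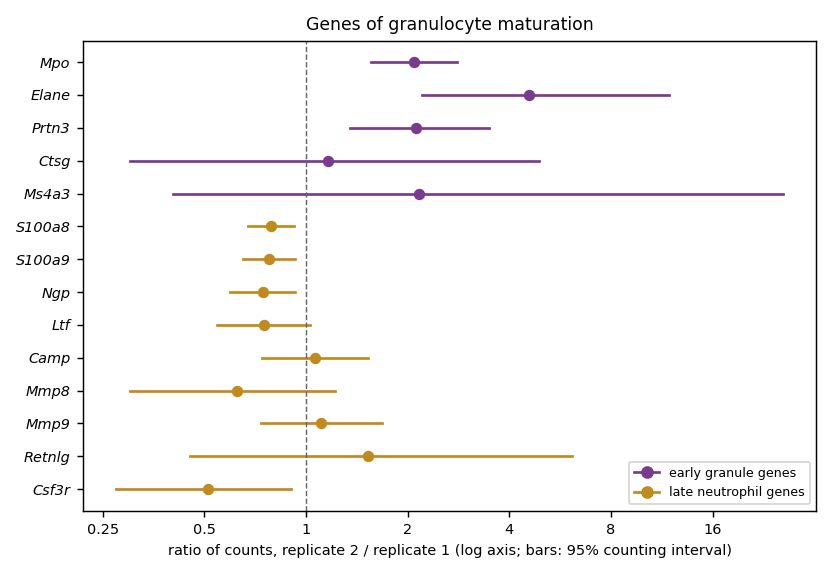
Ratio of counts of replicate 2 over replicate 1 (log axis) for 14 granulocyte genes sorted by stage after their values were seen, with 95% counting intervals as bars and stage by colour. All 5 early granule genes lie right of 1, from 1.16 for Ctsg to 4.58 for Elane, and 6 of 9 late genes lie left of it, counts that hold the 4 genes that prompted the sorting, while spike-in scaling would move every point left and Ctsg past 1.

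Promoters of 3 granulocyte genes that differed in opposite directions hold the same letters. PU.1, the product of Spi1, binds sites with the core GAGGAA, and the longer word GAGGAAGT, which contains that core, was searched on both strands from 250 bases before to 50 bases after each RefSeq start (GRCm38.p6). Of the 41 genes, 32 have a promoter in the RefSeq table. The longer word was in 7 of them (21.9%), namely C1qc, Ctss, Elane, F13a1, Mpo, Pf4 and S100a8, and in that of 3.69% of 27025 genes in the whole table. The core was in 17 of 32 (53.1%), against 31.3% of genes in the whole table. S100a9, which was lower in replicate 2 like S100a8, was not among the matches for the core or the longer word. It had no match or no promoter in the table. A match is a description and not a bound site. The 250 bases before the start of 3 granulocyte genes are shown, because Mpo and Elane were higher and S100a8 lower in replicate 2, with the longer word in capitals (ACTTCCTC where it is on the other strand). All 3 are on the plus strand.
Mpo, chr11:87793534-87793783: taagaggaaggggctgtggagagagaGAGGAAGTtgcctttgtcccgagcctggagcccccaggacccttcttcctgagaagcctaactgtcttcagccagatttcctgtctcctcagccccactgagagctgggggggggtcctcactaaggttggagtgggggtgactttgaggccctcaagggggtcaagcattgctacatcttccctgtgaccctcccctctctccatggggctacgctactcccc
Elane, chr10:79886062-79886311: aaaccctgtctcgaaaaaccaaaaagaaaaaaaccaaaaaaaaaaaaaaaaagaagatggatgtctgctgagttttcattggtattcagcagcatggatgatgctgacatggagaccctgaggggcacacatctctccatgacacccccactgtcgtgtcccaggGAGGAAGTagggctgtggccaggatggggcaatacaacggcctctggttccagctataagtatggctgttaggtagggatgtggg
S100a8, chr3:90668821-90669070: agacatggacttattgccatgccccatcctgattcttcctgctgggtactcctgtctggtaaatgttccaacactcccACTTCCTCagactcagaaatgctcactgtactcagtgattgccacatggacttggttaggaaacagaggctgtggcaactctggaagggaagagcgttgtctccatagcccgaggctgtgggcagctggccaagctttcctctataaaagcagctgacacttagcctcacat
The word begins 224 bases before the RefSeq start in Mpo, 85 in Elane and 172 in S100a8. These RefSeq starts lie downstream of the GENCODE gene starts given above, so part of each stretch lies within the gene as annotated there. The 3 genes were taken from the 7 that hold the word, so its presence in all 3 was given by that choice. Whether it bears on their directions was not tested.

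Both mast cell genes of the set were detected. Cpa3, mast cell carboxypeptidase, had 54 counts in replicate 2 and 91 counts in replicate 1, or 2.24 TPM in replicate 2 and 4.0 TPM in replicate 1. The chymase gene Cma1 had 44 counts in replicate 2 and 33 counts in replicate 1, or 2.52 TPM in replicate 2 and 2.01 TPM in replicate 1. Counts of the genes differed in opposite directions, but the counting interval of the Cma1 ratio, 0.82 to 2.13, includes 1. That of Cpa3 was 0.41 to 0.83. Of 14 further mast cell and basophil genes, 3 were detected, against 34.9% of all genes. These were Kit (51.6 ± 4.24 TPM), Mitf (2.43 ± 0.354 TPM) and Gata2 (1.53 ± 0.332 TPM), all 3 also expressed by other cells of the gut wall. The proteases Mcpt1, Mcpt2 and Mcpt4 had 7, 13 and 7 counts in replicate 2, against 10, 8 and 15 counts in replicate 1. Of the tryptase genes, Tpsab1 had 0 counts in both libraries, and Tpsb2 had 18 counts in replicate 2 and 16 counts in replicate 1. Tpsb2 is closely related to Tpsab1. The deposited posterior standard deviation of the count was 0 for both genes in both libraries, and misplaced reads between them were not tested for. Kitl, the mast cell growth factor that also serves the pacemaker cells of the gut, was at 40.1 ± 1.61 TPM.

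Lymphocyte genes were at or near the limit of counting. Il7r, the receptor for interleukin 7 on lymphoid progenitors, had 12 counts in replicate 2 and 27 counts in replicate 1, or 0.22 TPM in replicate 2 and 0.52 TPM in replicate 1, a ratio with a counting interval of 0.202 to 0.894. Cd3e, a chain of the T cell receptor complex, had 0 counts in replicate 2 and 2 counts in replicate 1, and Cd79a, a signalling chain of the B cell receptor, had 6 counts in replicate 2 and 2 counts in replicate 1. For Cd3e and Cd79a the counting intervals of the ratio include 1. Of 27 further lymphocyte genes, 8 were detected, against 34.9% of all genes. They were led by Ebf1 (10.7 ± 1.74 TPM), Il2rg (7.49 ± 1.44 TPM) and Lck (6.35 ± 1.29 TPM). Ebf1 is also a gene of mesenchyme, and Cd3d and the natural killer cell receptor gene Ncr1 had 0 counts in both libraries. The class II gene of the set, H2-Aa, was at a low level. H2-Aa, the alpha chain, had 58 counts in replicate 2 and 39 counts in replicate 1, or 3.22 TPM in replicate 2 and 2.24 TPM in replicate 1. Its ratio had a counting interval of 0.96 to 2.26, which includes 1. Of the 7 further class II genes listed, 5 were higher and 2 lower in replicate 2, against 2 higher and 5 lower with spike-in scaling and 4 higher and 3 lower by TPM. Cd74, the invariant chain, had 253 counts (12.2 TPM) in replicate 2 and 194 counts (10.1 TPM) in replicate 1. The beta chain that pairs with H2-Aa, H2-Ab1, had 183 counts (9.2 TPM) in replicate 2 and 134 counts (7.15 TPM) in replicate 1. H2-Eb1 had 34 counts in replicate 2 and 33 counts in replicate 1, with a log2 ratio of 0.02, while H2-DMb1 (-0.26) and H2-Oa (-0.63) were lower in replicate 2. These 5 were named after their values were seen. Class I genes led the 10 detected of 13 in that list, with B2m at 277 ± 6.79 TPM, H2-D1 at 60.8 ± 4.48 TPM and H2-K1 at 24.4 ± 1.44 TPM.

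The chemokine Cxcl12, a stromal signal that retains blood progenitors and guides migrating cells, was the most abundant of the 41 genes. It had 4935 counts in replicate 2 and 4874 counts in replicate 1, or 132 TPM in replicate 2 and 140 TPM in replicate 1, above 93.2% of detected genes. Its receptor Cxcr4 had 10.4 TPM in replicate 2 and 9.64 TPM in replicate 1, so that the ligand was 12.7 times as high as the receptor in replicate 2 and 14.5 times in replicate 1. Ackr3, the scavenging receptor for the same ligand, was at 26.7 ± 0.813 TPM, above Cxcr4 in both libraries. Cxcl12 and its receptors are not confined to leukocytes. Ccl2, which draws monocytes, had 5.13 TPM in replicate 2 and 5.51 TPM in replicate 1. Of 28 further chemokines and receptors, 12 were detected, against 34.9% of all genes. They were led by the eosinophil attractant Ccl11 (74.7 ± 2.09 TPM), Ccl21a of lymphatic vessels (42.1 ± 0.495 TPM) and Ackr3. Of 14 inflammation and interferon genes 4 were detected, among them Arg1 (9.01 ± 0.113 TPM) and Lcn2 (3.96 ± 1.70 TPM), a share near that of all genes. Il12b, Ifnb1 and Ifng had 0 counts in both libraries.

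**Figure D3:**
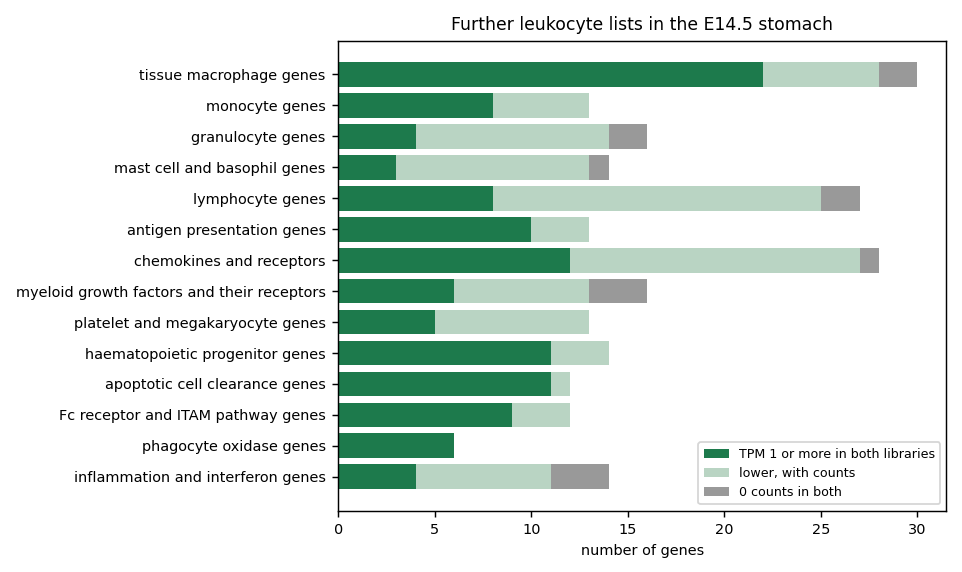
Number of genes in each of 14 further lists that reached TPM 1 in both, had counts but stayed lower, or were at 0 counts in both. The macrophage bar has 22 of 30 genes detected, the lymphocyte bar 8 of 27 and the mast cell and basophil bar 3 of 14. Of all genes, 34.9% were detected.

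Other lists put these levels in context. Of 16 further granulocyte genes, 4 were detected, a share below the 34.9% of all genes. They were led by Ngp (9.01 ± 2.14 TPM), Camp (7.54 ± 0.092 TPM) and Prtn3 (3.19 ± 1.36 TPM). Of 13 platelet and megakaryocyte genes 5 were detected, a share near that of all genes, with Vwf (6.39 ± 1.07 TPM), Itga2b (5.23 ± 0.721 TPM) and Itgb3 (2.5 ± 0.332 TPM) highest, and Vwf is also endothelial. Progenitor genes were detected for 11 of 14, led by Meis1 (116 ± 0.438 TPM), Mecom (69.5 ± 6.46 TPM) and Cd34 (54.5 ± 3.50 TPM), which stroma or vessels also express. Genes for the clearance of dying cells were detected for 11 of 12, led by Mfge8 (210 ± 14.1 TPM), Itgav (75.3 ± 6.71 TPM) and Cd47 (56.6 ± 7.95 TPM). Of 16 matched myeloid growth factors and receptors, 6 were detected, a share near that of all genes. They were led by Kitl, Il33 (8.42 ± 0.99 TPM) and Tslp (2.45 ± 1.24 TPM), and Csf2, Il3 and Il13 had 0 counts in both libraries.

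Most leukocyte genes lay within 2-fold between the libraries. Among the 26 leukocyte genes whose mean count reached 100, 1 (3.85%) lay over 2-fold apart, namely Mpo, against 0.298% of all genes at that count. At the lower limit of 10 it was 3 of 36 (8.33%), namely Mpo, Elane and Il7r, against 3.6% of all genes at that limit. These counts are small, and 1 gene decides the first. The median log2 ratio of replicate 2 over replicate 1 was -0.09 for the 26 genes and -0.01 for all genes whose mean count reached 100. The 26 genes ranged from -0.54 to 1.06, and 9 were higher and 17 lower in replicate 2. That split was 2 higher and 24 lower with spike-in scaling, which moved every log2 ratio by -0.27, and 6 higher and 20 lower with the ratio of TPM. For 95% of the 12761 genes whose mean count reached 100, the log2 ratio lay within 0.38 of 0. Of the 26 leukocyte genes, 24 did too. The median size of the log2 ratio, without its sign, was 0.22 for the 26 genes and 0.10 for those 12761 genes, whose counts were not matched to theirs. Besides Mpo, F13a1 lay outside, with 535 counts in replicate 2 and 764 counts in replicate 1, a log2 ratio of -0.54. Scaling bore on Mpo as well, since its ratio was 1.89 from TPM and 1.73 with spike-in scaling, both under 2-fold.

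**Figure D4:**
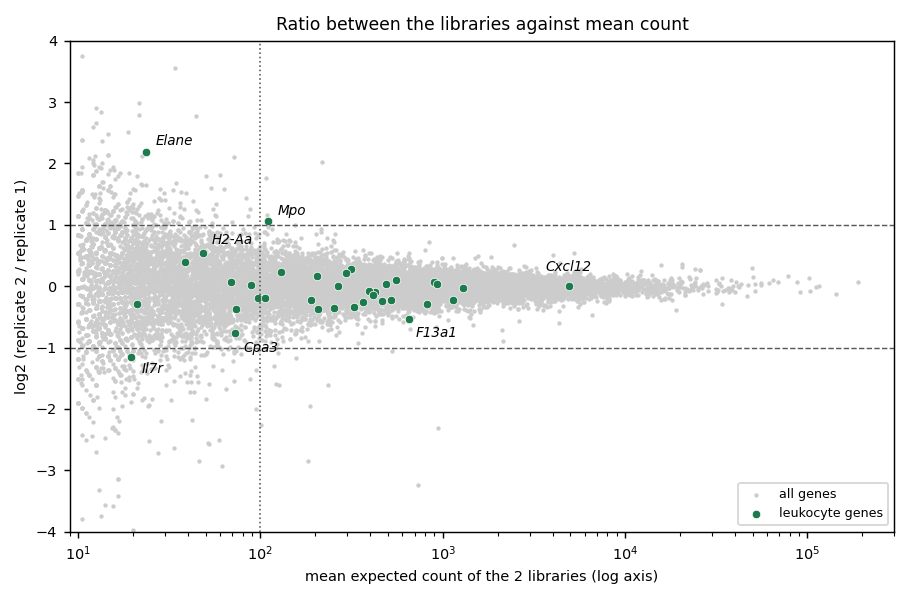
Log2 ratio of replicate 2 over replicate 1 against mean expected count (log axis) for genes whose mean count reached 10, with all genes in grey and leukocyte genes in green. Dashed lines mark 2-fold and the dotted line a mean count of 100, and 60 genes lie beyond the vertical axis. Mpo lies just above the upper dashed line at 1.06 and Elane at 2.19.

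Transcript shares were read for the 18 leukocyte genes with 100 or more counts in both libraries and more than 1 annotated transcript. In all 18 the same transcript was highest in both libraries, holding over 90% of the gene in 7 and under 60% in 4. Cxcl12 was made mainly as the transcript of the 89-residue form, with 80.3% of the gene in replicate 2 and 82.1% in replicate 1. The 93-residue form had 11.3% in replicate 2 and 11.2% in replicate 1, and the 119-residue form 2.87% in replicate 2 and 2.81% in replicate 1. Csf1 was less settled. The transcript of 4176 bases for the 552-residue precursor had 52.4% in replicate 2 and 38.8% in replicate 1, and that of a 257-residue precursor had 29.0% in replicate 2 and 35.1% in replicate 1. With a shorter transcript of the same protein, the 552-residue form summed to 71.0% in replicate 2 and 58.1% in replicate 1.

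CD45 is known for splicing of 3 exons near its N terminus, which are left out in different leukocytes. The Ptprc transcript of 1154 residues, which lacks 3 exons and 139 residues of the 1293-residue form, had 51.4% in replicate 2 and 49.1% in replicate 1, and the 1293-residue form had 3.18% in replicate 2 and 4.31% in replicate 1. These shares rest on 218 counts in replicate 2 and 192 counts in replicate 1, and by the deposited posterior mean the 1154-residue form averaged 24.9% in place of 50.3%. In Csf1r both transcripts encode 977 residues, and 1 of them had 79.1% ± 7.03. Laptm5 was divided among transcripts of 261, 241 and 263 residues with 37.7% ± 0.552, 34.1% ± 0.205 and 25.3% ± 3.10. For Aif1 the top transcript, at 51.3% ± 1.15, is annotated as a retained intron and has 462 bases. Shares are per length. By counts a coding transcript led, with 90.3 against 49.9 in replicate 2 and 79.4 against 39.6 in replicate 1. As estimated, the Aif1 gene level is thus not all mRNA for the protein.

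**Figure D5:**
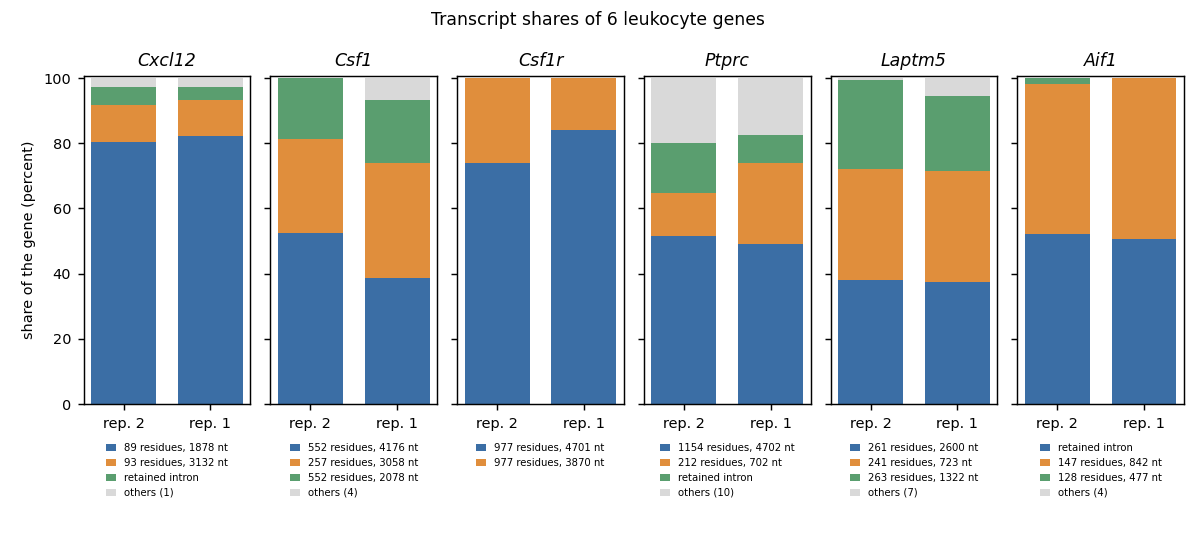
Share of each gene, in percent, held by its 3 most abundant transcripts in replicate 2 (left bar) and replicate 1 (right bar), marked by coding residues and length, with other transcripts in grey. The bars of Cxcl12 match closely, at 80.3% in replicate 2 and 82.1% in replicate 1 for the 89-residue form, while the top transcript of Csf1 differs, at 52.4% in replicate 2 and 38.8% in replicate 1.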

How the data were processed

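Total RNA was taken from 2 E14.5 stomachs, with a starting quantity of 10 ng and RNAs longer than 200 nt, per the labels. The authors deposited, for each library, a table of genes and a table of transcripts. The deposited expected counts are estimated reads per gene. The deposited TPM values scale to a total that includes spike-ins, and a posterior mean of each was an alternative. The deposited percent values state how much of a gene each transcript holds. A deposited score, the posterior standard deviation of a count, was 0 in both libraries for 35 of the 41 genes and at most 7.77 for the others, Csf1r, Cd52, Fcgr3, Lyz1, Lyz2 and Mpo. Genome build mm10 and annotation GENCODE M4 were used, per the submitters' processing notes. Aligner, counter and strand setting are not given here in any source, so a gene and its antisense partner cannot be told apart. Positions and symbols come from GENCODE M21 on the same assembly, in which 42462 of 43346 identifiers matched a symbol. Flt3l was not matched and was not analysed here. The 26248 numbered entries, with 25 counts in replicate 2 and 15.47 in replicate 1, and 96 spike-in sequences stayed out of library sizes.

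The genes and the 20 further lists were chosen with earlier results of these data known. Named were all 41 genes, the 3 highest of each further list, listed genes over 2-fold apart at a mean count of 100, genes at 0, and others said to be chosen after their values were seen. A few genes taken by this rule are left unreported. Ppbp, Tlx1, Mcpt1, Mcpt2, Mcpt4 and Tpsb2 were named outside it, as were genes that overlap those of the set. Log2 ratios of replicate 2 over replicate 1 used expected counts, TMM sizes from edgeR 4.0.16 in R 4.3.3 and 0.5 added to each count. With 1 library per side there is no p-value. Intervals are exact binomial ones at 95%, and they and the floor of 3 counts cover counting error only. Alternatives were DESeq2 1.42.0 size factors (expected counts rounded), spike-in sizes, TPM ratios, other filters and each library alone. The ratio and its calls were tested on simulated data. Scripts ran in Python 3.11.15 with matplotlib 3.10.9, scipy 1.17.1, pandas 2.3.3 and numpy 2.4.6.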

Additional observations from a re-analysis of the deposited data

How the results depend on the processing

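Of the 26 genes whose mean count reached 100, 1 lay over 2-fold apart, and it was 1 again with DESeq2 size factors, 1 added to each count or posterior mean counts. The number was 0 with spike-in sizes and 0 with the ratio of TPM, 3 when the limit was 10 and 6 with no filter beyond a count above 0, where the added genes have few counts. The median log2 ratio was -0.35 with spike-in sizes, because that scaling shifts every gene. Summed TPM of the set was 888 in place of 741 once spike-ins and mitochondrial genes were taken out of the total, which raised every gene by 1.19 to 1.21 times. With each library alone the set summed to 701 TPM in replicate 2 and 780 TPM in replicate 1, and 34 genes reached TPM 1 in each. Posterior mean TPM was 0.967 to 1.89 times the TPM used, above 1.5 times only for Il34 and Cd3e. By posterior mean percent, 16 of 18 genes kept the same top transcript in both libraries, all but Csf1 and Ptprc. No paired analysis was possible because the series has 1 group. Low counts limit Elane, Il7r, Cd3e, Cd79a, Cd163 and Timd4, and 2 embryos cannot separate biological from technical spread.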
